A study of Ovis aries with 12 samples.

Results

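The comparison set sheep fed 1% succinate against sheep fed 0.5% succinate, that is, the step between the lower and the middle dose of a feeding trial, with no basal diet library in the fit. It used 6 of the 12 RNA-seq libraries of the series: replicates 1, 2 and 3 of the basal diet with 0.5% succinate, and replicates 1, 2 and 3 of the basal diet with 1% succinate. All came from 5-month-old Tan sheep (Ovis aries), which shared the same basal diet. The trial held 36 sheep, 9 on each of 4 diets. The labels do not say whether each library is 1 sheep or a pool, and the spread that the p-values rest on is that of these 3 libraries a diet, which may be technical. The members were chosen by diet label alone, and 11614 of the 21257 genes in the file had at least 1 FPKM (fragments scaled for gene length and sequencing depth) in at least 3 of the 6 libraries and were tested.

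Succinate is a dicarboxylic acid of the tricarboxylic acid cycle that rumen bacteria release and turn into propionate. In animal cells succinate dehydrogenase oxidises it, SUCNR1 senses it outside the cell, and, when it accumulates, it can slow the 2-oxoglutarate-dependent enzymes that remove methyl groups from DNA and histones or mark HIF1A for degradation. The rumen wall is a keratinised stratified epithelium on a layer of connective tissue and thick smooth muscle, with enteric neurons between the muscle layers.

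No label says which tissue was sampled; the title of the series mentions epithelial cells of the rumen. Some defining genes of a stratified epithelium were not detected: KRT5, KRT15 and TP63, which mark basal keratinocytes, and KRT4, KRT6A, KRT36, IVL, KRTDAP and DSG3, which mark the upper layers, had 0 reads in all 6 libraries. A count of 0 allows up to 3 reads, and this limit covers counting error only. These are 3 of the 10 basal and 6 of the 18 upper-layer genes in the file; the others had reads. In each of these lists 4 genes reached the level tested, and the basal list summed to 13.9 to 29.1 FPKM and the upper-layer list to 77.1 to 286 FPKM. Most of the latter was FABP5, a fatty acid binding protein also made by other cells, at 114, 193 and 255 FPKM with 0.5% and 244, 52.4 and 163 FPKM with 1%. PKP1, a plakophilin of desmosomes, was at 13.2, 13.6 and 11.6 FPKM with 0.5% and 24.9, 11.1 and 59.1 FPKM with 1%. Genes of contractile smooth muscle were far more abundant: DES, the intermediate filament of muscle, was at 16068, 12879 and 9772 FPKM with 0.5% and 7819, 12996 and 8315 FPKM with 1%. Per-library values are given in the order of replicates 1, 2 and 3 throughout. The libraries are therefore described here as muscle-rich samples of a tissue that the labels do not name. In such bulk samples, fewer cells of a type and less RNA per cell cannot be told apart.

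The 6 libraries held 15489883 to 18229291 reads assigned to genes. Their main difference ran along gene length. In 0.5% replicate 2 short genes were high relative to long genes, with a Spearman correlation across genes of -0.69 between a gene's deviation from the 6-library mean and its length. In 1% replicates 2 and 3 the trend was the opposite, at 0.59 and 0.44. The other 3 libraries were at -0.20, -0.23 and -0.05. Each was computed over the tested genes, and genes do not vary independently of each other. The first principal component, with 45.6% of the variance, put 1% replicates 2 and 3 at 26.7 and 46.1, and 0.5% replicate 2 at -34.6. The second, with 19.9%, set 0.5% replicate 1 apart, at 38.2. Mitochondrial genes took 2.90% to 6.38% of the reads, least in 1% replicates 3 and 2. No sequencing batch or date was given, so no batch could be tested.

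These trends fall on opposite sides of the comparison, and the difference between the diets followed length. Among the 1161 shortest tested genes, of 198 to 1088 bases, the median log2 difference (1% minus 0.5% succinate, on log2(FPKM + 1)) was -0.49. Among the 1162 longest, of 7699 to 73847 bases, it was 0.48. The medians of the classes between increased step by step, from -0.26 in the second to 0.34 in the ninth, and the Spearman correlation of the difference with length was 0.66 across genes. Every gene was therefore read against genes of similar length in 2 ways: beside the median of its length class, and after each library's own length trend had been subtracted by a smooth curve. After subtraction the correlation was -0.03, the class medians lay between -0.01 and 0.02, and the SD of the differences fell from 0.40 to 0.30. The libraries still differed. The first principal component then held 37.1% of the variance, with 1% replicate 3 at 43.6 and 1% replicate 1 at -21.4. Across genes 1% replicate 1 then correlated at 0.979 with 0.5% replicate 3, and at 0.961 and 0.931 with 1% replicates 2 and 3. The subtraction takes away whatever follows length, whether it came from the samples or from the libraries, which these files cannot tell apart.

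**Figure D1:**
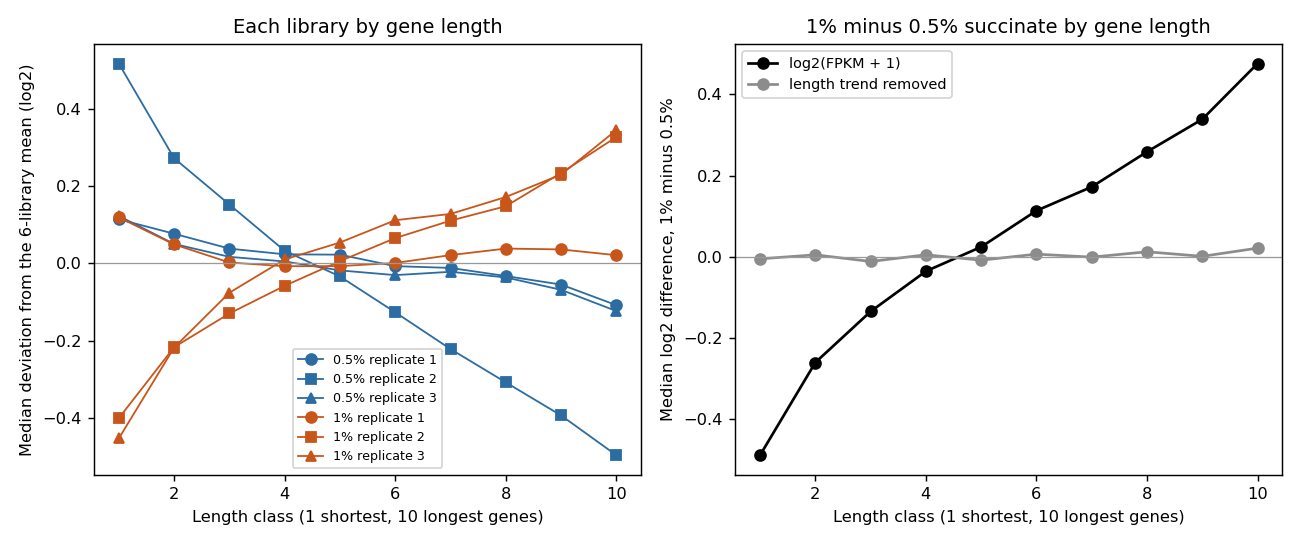
Left, median deviation of each library from the 6-library mean, on log2(FPKM + 1), in 10 equal-sized classes of gene length; blue marks 0.5% and orange 1% succinate, and circles, squares and triangles mark replicates 1, 2 and 3. Right, the median log2 difference, 1% minus 0.5%, in the same classes before (black) and after (grey) the length trend of each library was removed; it runs from -0.49 to 0.48 before and stays between -0.01 and 0.02 after.

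No gene passed the threshold of 0.05 after Benjamini-Hochberg adjustment in limma, which is 0% of the 11614 tested, with the smallest adjusted p at 0.435. After the length trend was removed the share was again 0%, with the smallest adjusted p at 0.922. At an unadjusted p under 0.05, 815 genes were higher at 1% (7.02%) and 476 lower (4.1%). After length removal these were 309 (2.66%) and 183 (1.58%). The larger number of higher than lower genes on the FPKM scale depended on scaling: with TMM factors it was 492 higher and 837 lower, and the median difference of all tested genes moved from 0.06 to -0.04. With library weights, whose estimation stopped before it converged, 3594 genes passed on FPKM values and 1368 after length removal, and with limma-voom on the recovered reads 0 passed on either. A failure to pass does not show that the diets were alike: the median standard error was 0.25 log2 units on FPKM values and 0.23 after length removal.

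A plainer reading is whether all 3 values at 1% lay on one side of all 3 values at 0.5%. On FPKM values this held for 1188 genes that were higher (10.2% of those tested) and 646 that were lower (5.56%). After length removal it held for 586 higher (5.05%) and 438 lower genes (3.77%). The 2 readings shared 449 of the higher genes, which is 37.8% of the first set and 76.6% of the second, and 247 of the lower genes, 38.2% and 56.4%. The counts followed length: of the longest class 33.6% of genes were higher without overlap and 0.258% lower, and of the shortest class 0.947% were higher and 19.98% lower. An exact permutation test on a single gene cannot go below 0.1 with 3 libraries against 3, so none is given. Of every list described in the following, 0 members passed the adjusted threshold on either scale.

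DUXB, a double homeobox gene, was among the genes of smallest p on both scales. It was at 0.502, 0.508 and 1.398 FPKM with 0.5% succinate and at 3.46, 3.63 and 3.24 FPKM with 1%. At 0.5% only replicate 3 reached 1 FPKM, so DUXB entered the test through the 1% libraries, where it was high. Its lowest value at 1% was above the highest at 0.5%, and the 3 libraries at 1% were close together. The log2 difference was 1.34 ± 0.25 (SE, n = 3 and 3) on FPKM values and 1.75 ± 0.29 after length removal, as a short gene of 942 bases whose length class had a median of -0.49. The basal diet stood at 1.35 ± 0.334 FPKM and 2% succinate at 1.98 ± 0.596 FPKM (SD, n = 3 each), both means between those of the 2 doses compared. The gene lies at chromosome 14, 2435069 to 2447588 in the coordinates of the file, whose build is not given in the sources used here, and its gene model is annotated as of low quality.

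DLGAP1, a scaffold protein of the postsynaptic density, was at 0.228, 0.454 and 1.39 FPKM with 0.5% and 3.401, 3.02 and 4.81 FPKM with 1% succinate. All 3 values at 1% were above those at 0.5%, and 0.5% replicate 3 was the nearest. That library alone reached 1 FPKM at 0.5%, so DLGAP1 too entered the test through the 1% libraries. The difference was 1.53 ± 0.29 on FPKM values and 1.154 ± 0.28 after length removal. The basal and 2% means were 1.37 and 1.36 FPKM, below all 3 values at 1%. FRYL, a homologue of the fly furry protein, was at 7.01, 5.92 and 8.36 FPKM with 0.5% and at 15.2, 18.1 and 17.3 FPKM with 1%. It is a long gene (12880 bases), and its difference of 1.1496 ± 0.22 was set beside a class median of 0.48 and came to 0.64 ± 0.18 after length removal. TEX14, known in mouse for the bridges between germ cells, was at 1.41, 0.669 and 1.34 FPKM with 0.5% and at 3.71, 3.19 and 3.32 FPKM with 1%.

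THRB, the beta receptor of thyroid hormone, was at 14.2, 14.2 and 24.4 FPKM with 0.5% and 31.2, 35.1 and 28.9 FPKM with 1% succinate. The groups did not overlap, and 0.5% replicate 3 came closest to the 1% libraries. The difference was 0.86 ± 0.25 on FPKM values and 1.12 ± 0.27 after length removal, and the basal and 2% means were 25.6 and 27.02 FPKM. RNF186, a ubiquitin ligase known from the colon epithelium, was at 3.97, 6.58 and 4.14 FPKM with 0.5% and 8.31, 14.2 and 14.4 FPKM with 1%. Here 1% replicate 1 was lower than the other two but still above the whole 0.5% group.

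FAM221B and its neighbour FAM166B, which encodes a protein of ciliary microtubules, were also without overlap. FAM221B was at 5.08, 3.81 and 5.43 FPKM with 0.5% and 11.7, 9.59 and 17.2 FPKM with 1%, a difference of 1.23 ± 0.26, and 1.16 ± 0.23 after length removal. FAM166B was at 3.77, 1.499 and 2.23 FPKM with 0.5% and 7.76, 5.57 and 7.601 FPKM with 1%, a difference of 1.23 ± 0.28, and 1.56 ± 0.30 after length removal. They lie close together, FAM221B at chromosome 2, 52718585 to 52728529 and FAM166B at chromosome 2, 52928783 to 52930890. Between them lie HINT2 and TPM2, described further on, which both had lower values at 1%. FAM221B, FAM166B, FRYL, TEX14 and PAICS overlap a gene on the opposite strand (TMEM8B, RUSC2, ZAR1, LOC101102994 and PPAT). The strand setting of the counting is not given, so reads of such partners may be mixed. The same holds for ITGA7 with METTL7B, ANKRD37 with UFSP2, MRPL14 with TMEM63B, PCCA with GGACT, PDIA6 with ATP6V1C2 and PRC1 with RCCD1, which are described further on.

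**Figure D2:**
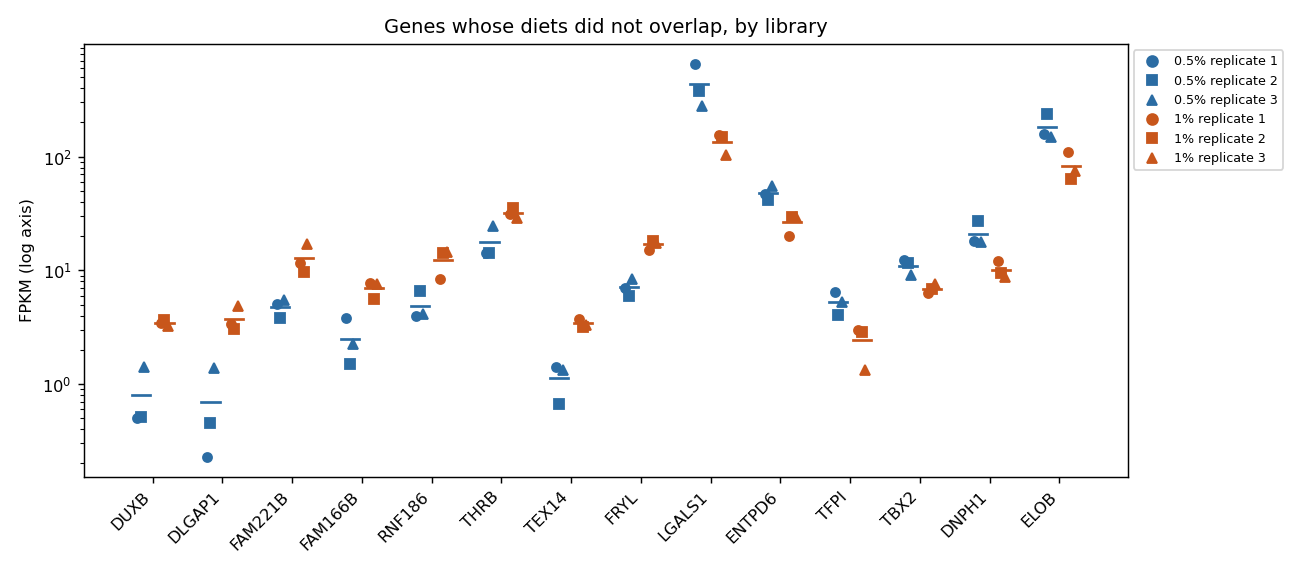
FPKM on a log axis of 14 genes whose values did not overlap between the diets, in the 3 libraries at 0.5% (blue) and the 3 at 1% succinate (orange), with circles, squares and triangles for replicates 1, 2 and 3 and bars at the group means. The 8 genes on the left were higher and the 6 on the right lower at 1%; none passed the adjusted threshold.

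LGALS1 was lower in value at 1% in every library. It encodes galectin-1, a lectin that binds galactose-containing sugars on the cell surface and in the matrix. It was at 657, 379 and 281 FPKM with 0.5% succinate and at 154, 148 and 104 FPKM with 1%. The lowest value at 0.5% was well above the highest at 1%, and 0.5% replicate 1 was the highest of all. The difference was -1.62 ± 0.35, for a gene of 533 bases whose length class had a median of -0.49, and -0.99 ± 0.35 after length removal, where the groups still did not overlap. The basal diet stood at 164 ± 21.02 FPKM and 2% succinate at 228 ± 29.2 FPKM, so the 1% group was nearer to the basal diet than the 0.5% group was.

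Neither LGALS3 nor LGALS8 showed this separation. LGALS3, the galectin of macrophages and epithelia, was at 7.05, 27.1 and 22.8 FPKM with 0.5% and 30.98, 23.2 and 9.94 FPKM with 1%, and LGALS8 was at 23.2, 17.8 and 20.7 FPKM with 0.5% and 19.4, 28.4 and 23.9 FPKM with 1%; both overlapped. Of the HINT genes, which encode small nucleotide hydrolases, HINT2 of the mitochondria was at 16.8, 21.3 and 10.6 FPKM with 0.5% and 9.602, 6.82 and 8.04 FPKM with 1%, with no overlap on FPKM values and overlap after length removal. HINT1, the cytosolic member, was at 14.1, 27.2 and 23.001 FPKM with 0.5% and 17.6, 15.8 and 9.55 FPKM with 1%. These overlapped, and both doses were far below the basal mean of 82.2 ± 12.3 FPKM.

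ENTPD6, which cleaves nucleoside diphosphates, had almost the same difference on both scales. It was at 47.3, 41.9 and 54.9 FPKM with 0.5% and 20.1, 29.6 and 29.6 FPKM with 1%, a difference of -0.85 ± 0.24, and -0.86 ± 0.21 after length removal. The 1% values were nearer than the 0.5% values to the basal mean of 27.996 and the 2% mean of 32.1 FPKM. TFPI, the inhibitor of the tissue factor pathway of clotting, was at 6.48, 4.07 and 5.28 FPKM with 0.5% and 3.02, 2.89 and 1.33 FPKM with 1%. TBX2, a T-box repressor, was at 12.4, 11.5 and 9.07 FPKM with 0.5% and 6.29, 6.81 and 7.56 FPKM with 1%. PAICS, an enzyme of purine synthesis, was at 2.82, 3.21 and 3.25 FPKM with 0.5% and 2.08, 1.85 and 1.34 FPKM with 1%. In each of these 4 genes the diets did not overlap on either scale.

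Short genes made up the rest of the lower genes named by FPKM values. ELOB, which encodes elongin B, was at 159, 239 and 149 FPKM with 0.5% and 110.4, 64.1 and 74.4 FPKM with 1%. Its difference was -1.13 ± 0.29 on FPKM values and -0.43 ± 0.17 after length removal. DNPH1, a hydrolase of deoxynucleoside monophosphates, was at 18.2, 27.1 and 17.6 FPKM with 0.5% and 12.03, 9.52 and 8.73 FPKM with 1%, and its difference of -0.97 came to -0.37. RPS19BP1, a regulator of the deacetylase SIRT1, went from -0.91 to -0.41, and TSTD1, a sulfurtransferase, from -0.83 to -0.18, where its groups overlapped. CSRP1, a LIM protein of smooth muscle, showed the reverse: it overlapped on FPKM values, at 206, 246 and 215 FPKM with 0.5% and 126, 185 and 221 FPKM with 1%, and was without overlap only after length removal, at -0.90 ± 0.23. Its deposited length is 19750 bases, and whether the sequenced transcript is that long was not tested. The same holds for BNIP3L (8043 bases), TPM1 (9684), SDHB (11668) and IGF2 (24117), whose length-removed values rest on that figure.

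Several of the most abundant smooth muscle genes had lower values at 1% succinate, although the list's direction flipped with quantile normalization, and none passed the adjusted threshold. Of the 16 tested genes of the contraction list, 10 had lower and 6 higher mean values at 1%. The groups did not overlap in 5 lower genes and 1 higher gene, 31.2% and 6.25% of the list beside 5.56% and 14.7% of all genes of their length classes. The list median was -0.37, against 0.11 for all genes of the same length classes and 0.06 for all tested genes, and -0.29 after length removal, where TPM1 and TPM2 were lower without overlap. Without 0.5% replicate 1, which had the highest list score, the median was -0.22 on FPKM values and -0.15 after length removal. With quantile normalization, which forces all libraries to 1 distribution, the list median was 0.16.

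TPM2, a tropomyosin that lies along the actin filament and gates myosin, was at 3294, 3273 and 2866 FPKM with 0.5% and 1975, 2168 and 1903 FPKM with 1%. The 1% values lay together, well below all 3 values at 0.5%. Its difference was -0.64 ± 0.33 on FPKM values and -0.58 ± 0.18 after length removal, with no overlap on either scale, and with quantile normalization the second was 0.0048. The basal mean was 2198 ± 192 and the 2% mean 2119 ± 328 FPKM, close to the 1% group. TAGLN (transgelin, an actin-binding protein) was at 9358, 8421 and 7548 FPKM with 0.5% and 5013, 5579.8 and 4512 FPKM with 1%. CNN1 (calponin, which restrains myosin on actin) was at 8898, 6439 and 5332 FPKM with 0.5% and 4026, 4890.4 and 4374 FPKM with 1%. Both were without overlap on FPKM values and overlapped after length removal.

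ACTG2, the actin of gut smooth muscle, was at 6933, 6997 and 7464 FPKM with 0.5% and 4345, 6042 and 5426 FPKM with 1%. MYL9, the regulatory light chain of smooth muscle myosin, was at 10201, 11070.4 and 7989 FPKM with 0.5% and 6937, 7926 and 7133 FPKM with 1%. Both were lower at 1% in every pair of libraries on FPKM values, but their differences were -0.17 and -0.09 after length removal. MYH11, the heavy chain of smooth muscle myosin and a long gene, was at 3411, 2368 and 3345 FPKM with 0.5% and 2619, 4956 and 4379 FPKM with 1%. Its groups overlapped and its difference was 0.36, and 0.01 after length removal. MYLK, the kinase that switches that myosin on, was at 1322, 830.5 and 1645 FPKM with 0.5% and 1323, 1304 and 1029 FPKM with 1%.

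ACTA2, the actin of vascular smooth muscle, was at 600.4, 221 and 294 FPKM with 0.5% and 60.9, 60.8 and 369 FPKM with 1%. Replicates 1 and 2 of the 1% diet were far below all others, and 1% replicate 3 was within the range of the 0.5% group, so the difference of -1.60 ± 0.76 had the largest standard error of the 16 genes. ACTA1, the actin of skeletal muscle, was lower without overlap on both scales, at 138, 163 and 130.2 FPKM with 0.5% and 72.1, 105 and 97.7 FPKM with 1%. Actin genes are near-identical in their coding parts, and how reads shared between them were counted is not stated, so the split between ACTA1, ACTA2 and ACTG2 is uncertain. MYOCD, the coactivator that turns smooth muscle genes on, was at 5.72, 4.58 and 4.17 FPKM with 0.5% and 5.51, 11.1 and 12.3 FPKM with 1%, higher in 1% replicates 2 and 3 alone. SYNPO2, a long gene of the Z-disc and of dense bodies, was higher on FPKM values by a narrow margin, at 275, 171 and 226 FPKM with 0.5% and 276, 411 and 413 FPKM with 1%, and overlapped after length removal.

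**Figure D3:**
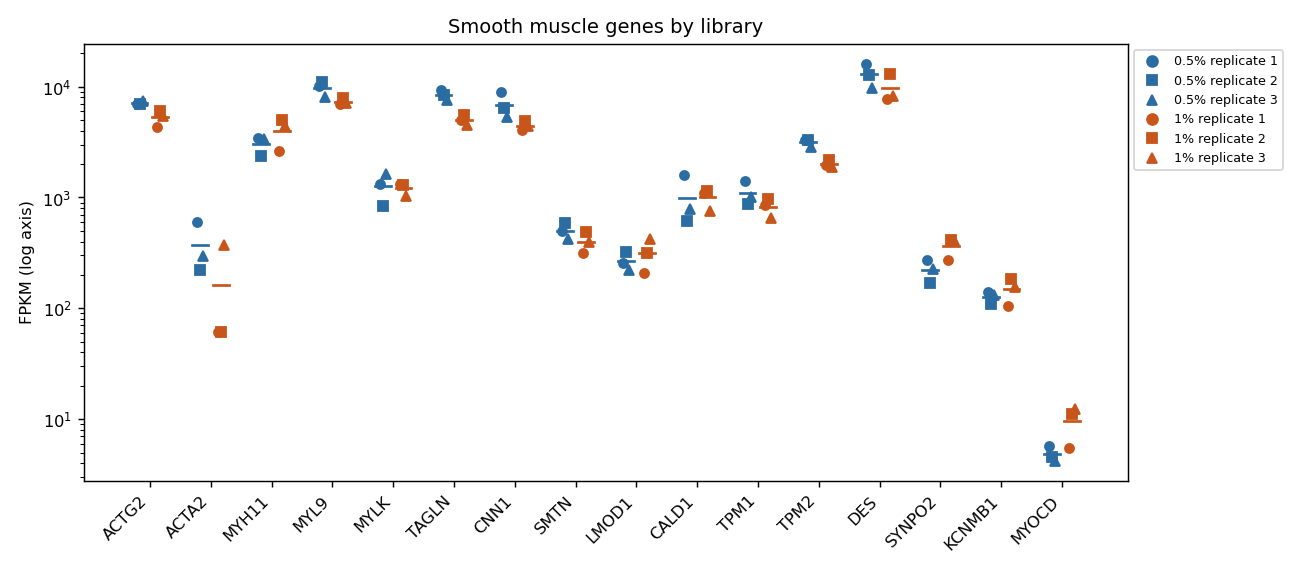
FPKM on a log axis of the 16 genes of the smooth muscle list in the 3 libraries at 0.5% (blue) and the 3 at 1% succinate (orange), with symbols for replicates 1, 2 and 3 and bars at the group means. TAGLN, CNN1, TPM2, ACTG2 and MYL9 lie lower at 1% without overlap, SYNPO2 lies higher without overlap, and the other 10 overlap.

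Genes that tie smooth muscle to its matrix were mostly higher in value at 1% succinate. Of 23 tested integrin and adhesion plaque genes, 22 were higher in value and 4 were without overlap, with a median of 0.48 against 0.26 for genes of the same length classes. The share without overlap was 17.4%, beside 18.9% of all genes of those classes. After length removal 16 were higher, 1 without overlap (4.35%, beside 5.56%). Without 0.5% replicate 2 the FPKM median was 0.22, and without 1% replicate 3 the length-removed median of 0.17 was -0.01. The gene without overlap on both scales was ITGA7, the laminin receptor of muscle, at 57.4, 36.9 and 58.1 FPKM with 0.5% and 65.4, 105 and 177 FPKM with 1%. Its lowest 1% value, in replicate 1, was only a little above the 0.5% group, and replicate 3 was the highest. The difference was 1.09 ± 0.35, and 0.88 ± 0.31 after length removal. TNS1, a tensin that links integrins to actin, was at 181, 129.7 and 179 FPKM with 0.5% and 189.7, 469 and 632 FPKM with 1%, so that 1% replicate 1 was barely above the 0.5% group and the 2 libraries with the upward length trend were far above it. Without those 2 libraries the length-removed difference of TNS1 was -0.023.

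Of 20 tested collagen genes, 19 were higher in value at 1%, with a median of 0.43 against 0.34 for genes of the same length, and 4 (20%) were without overlap, beside 21% of all tested genes of their length classes. After length removal 13 were higher and 7 lower in value, with a median of 0.16. On that scale 2 higher and 1 lower were without overlap (10% and 5%, beside 5.26% and 4.06%). Without 0.5% replicate 2 the medians were 0.14 on FPKM values and -0.05 after length removal. COL4A5 and COL4A6, whose genes lie head to head on chromosome X and whose chains form part of the basement membrane around smooth muscle, were without overlap on both scales. COL4A5 was at 1.798, 5.34 and 9.297 FPKM with 0.5% and 11.2, 13.9 and 16.6 FPKM with 1%. COL4A6 was at 0.817, 2.82 and 4.35 FPKM with 0.5% and 5.02, 8.01 and 13.2 FPKM with 1%. In both genes 0.5% replicate 1 was the lowest library. Their differences were 1.38 ± 0.41 and 1.46 ± 0.42, and 1.04 ± 0.43 and 1.10 ± 0.42 after length removal. The basal and 2% means of COL4A6 were 5.18 and 5.67 FPKM, between the means of the 2 doses.

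The more abundant type IV chains COL4A1 and COL4A2 did not follow. COL4A1 was at 312, 129 and 185 FPKM with 0.5% and 129, 276 and 334 FPKM with 1%, with overlap. COL18A1, the collagen that carries endostatin, was the 1 collagen lower in value on the FPKM scale, at 57.2, 33.5 and 33.8 FPKM with 0.5% and 17.5, 15.7 and 34.4 FPKM with 1%. The groups overlapped on FPKM values, by 1% replicate 3, and not after length removal, where the difference was -1.14 ± 0.30. The fibrillar chains overlapped throughout: COL1A1 was at 77.5, 39.7 and 119.8 FPKM with 0.5% and 59.1, 104 and 181 FPKM with 1%, and COL3A1 at 554, 238 and 678 FPKM with 0.5% and 405, 469 and 578 FPKM with 1%. FBN1, the fibrillin of elastic microfibrils, was at 10.7, 14.7 and 19.2 FPKM with 0.5% and 19.6, 36.9 and 34.4 FPKM with 1%, just without overlap on FPKM values, and its groups overlapped after length removal.

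Long chromatin genes had the highest list median on FPKM values, and after length removal those of adipocytes, enteric neurons and macrophages were higher. All 27 tested chromatin regulators were higher in value at 1%, 16 without overlap, with a median of 0.71 against 0.48 for genes of the same length. After length removal 22 were higher and 5 without overlap, and the median was 0.28. Their median length was 10266 bases. KMT2A, which methylates lysine 4 of histone H3, was at 3.42, 1.53 and 3.095 FPKM with 0.5% and 3.87, 9.89 and 11.3 FPKM with 1%. NSD1, which methylates lysine 36, was at 9.15, 4.93 and 8.24 FPKM with 0.5% and 10.5, 16.9 and 18.4 FPKM with 1%. BPTF, a reader of histone methylation, was at 5.34, 2.96 and 6.17 FPKM with 0.5% and 7.06, 11.1 and 10.8 FPKM with 1%. In all 3 genes 1% replicate 1 was close to the 0.5% group and 1% replicates 2 and 3 far above it. Without those 2 libraries the list median was 0.27 on FPKM values and 0.04 after length removal. The shares without overlap were 59.3% on FPKM values and 18.5% after length removal, beside 30.8% and 7.21% of genes of their length classes.

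The demethylases that depend on 2-oxoglutarate and can be slowed by succinate also had higher mean values. All 18 tested TET, KDM and related genes were higher in value at 1% on FPKM values, 6 without overlap (33.3%, beside 22.3% of genes of their length classes), with a median of 0.41 beside 0.34 for genes of the same length. After length removal 14 were higher, and the 2 without overlap were KDM3B and KDM5A (11.1%, beside 5.62%). Without all 3 libraries with a length trend the FPKM median was 0.04. KDM5A, which removes methyl groups from lysine 4 of histone H3, was at 9.48, 5.7001 and 9.05 FPKM with 0.5% and 11.2, 14.7 and 16.97 FPKM with 1%. TET2, which oxidises methylcytosine, was at 4.7005, 3.59 and 7.64 FPKM with 0.5% and 9.25, 10.8 and 9.61 FPKM with 1%, and overlapped after length removal. FTO, an RNA demethylase with a short deposited length, was at 24.4, 15.3 and 20.9 FPKM with 0.5% and 23.4, 23.7 and 28.5 FPKM with 1%.

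At the other end of the length scale, ribosomal protein genes had lower mean values. All 76 tested cytosolic ribosomal protein genes had lower means at 1%, with a median of -0.82 against -0.49 for genes of the same length. After length removal 75 were still lower, with a median of -0.24. The groups did not overlap in 8 genes on FPKM values, 10.5% of the list beside 19.4% of all genes of their length classes, and in 3 after length removal, 3.95% beside 4.03%. RPS16, of the small subunit, was at 1599, 2597 and 1564 FPKM with 0.5% and 1182, 806 and 713 FPKM with 1%. The list median was -0.53 without 0.5% replicate 2, -0.15 without the 2 libraries at 1% with a length trend, 0.14 without all 3 libraries with one, and turned to 0.23 after length removal with quantile normalization. Ribosomal protein genes have many pseudogene copies, and reads shared with them may have been counted at either place.

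Nuclear genes of the mitochondria followed length closely. Of 54 tested genes of the respiratory chain and ATP synthase, 53 were lower in value, with a median of -0.60 against -0.49 for genes of the same length, and -0.11 after length removal. The groups did not overlap in 15 lower genes on FPKM values (27.8%, beside 17.3% of genes of their length classes) and in 5 lower and 1 higher after length removal (9.26% and 1.85%, beside 3.97% and 5.74%). The list names another 20 genes, of complexes III and IV and the cytochrome c group, which were not analysed here. The 75 mitochondrial ribosomal protein genes had a median of -0.42, and -0.07 after length removal. The 31 proteasome genes, which are not mitochondrial, were at -0.37 and -0.05. On FPKM values 1 was higher and 4 lower without overlap (3.23% and 12.9%, beside 2.44% and 14.1%). With the length trend removed 3 were higher and 3 lower (9.68% each, beside 5.45% and 3.84%). Single members of the mitochondrial lists stood out against their medians. ATP5MF, a subunit of ATP synthase, was at 79.9, 88.99 and 62.1 FPKM with 0.5% and 53.7, 32.2 and 32.3 FPKM with 1%. It was without overlap on either scale, with a length-removed difference of -0.69 ± 0.19. MRPL14 and MRPS21, of the large and small mitochondrial ribosome, were also lower without overlap on both scales, at -0.56 ± 0.18 and -0.61 ± 0.19. After length removal, however, 3 mitochondrial ribosomal genes were higher and 3 lower without overlap, 4% of the list each way, beside 5.69% and 3.93% of genes of their length classes.

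**Figure D4:**
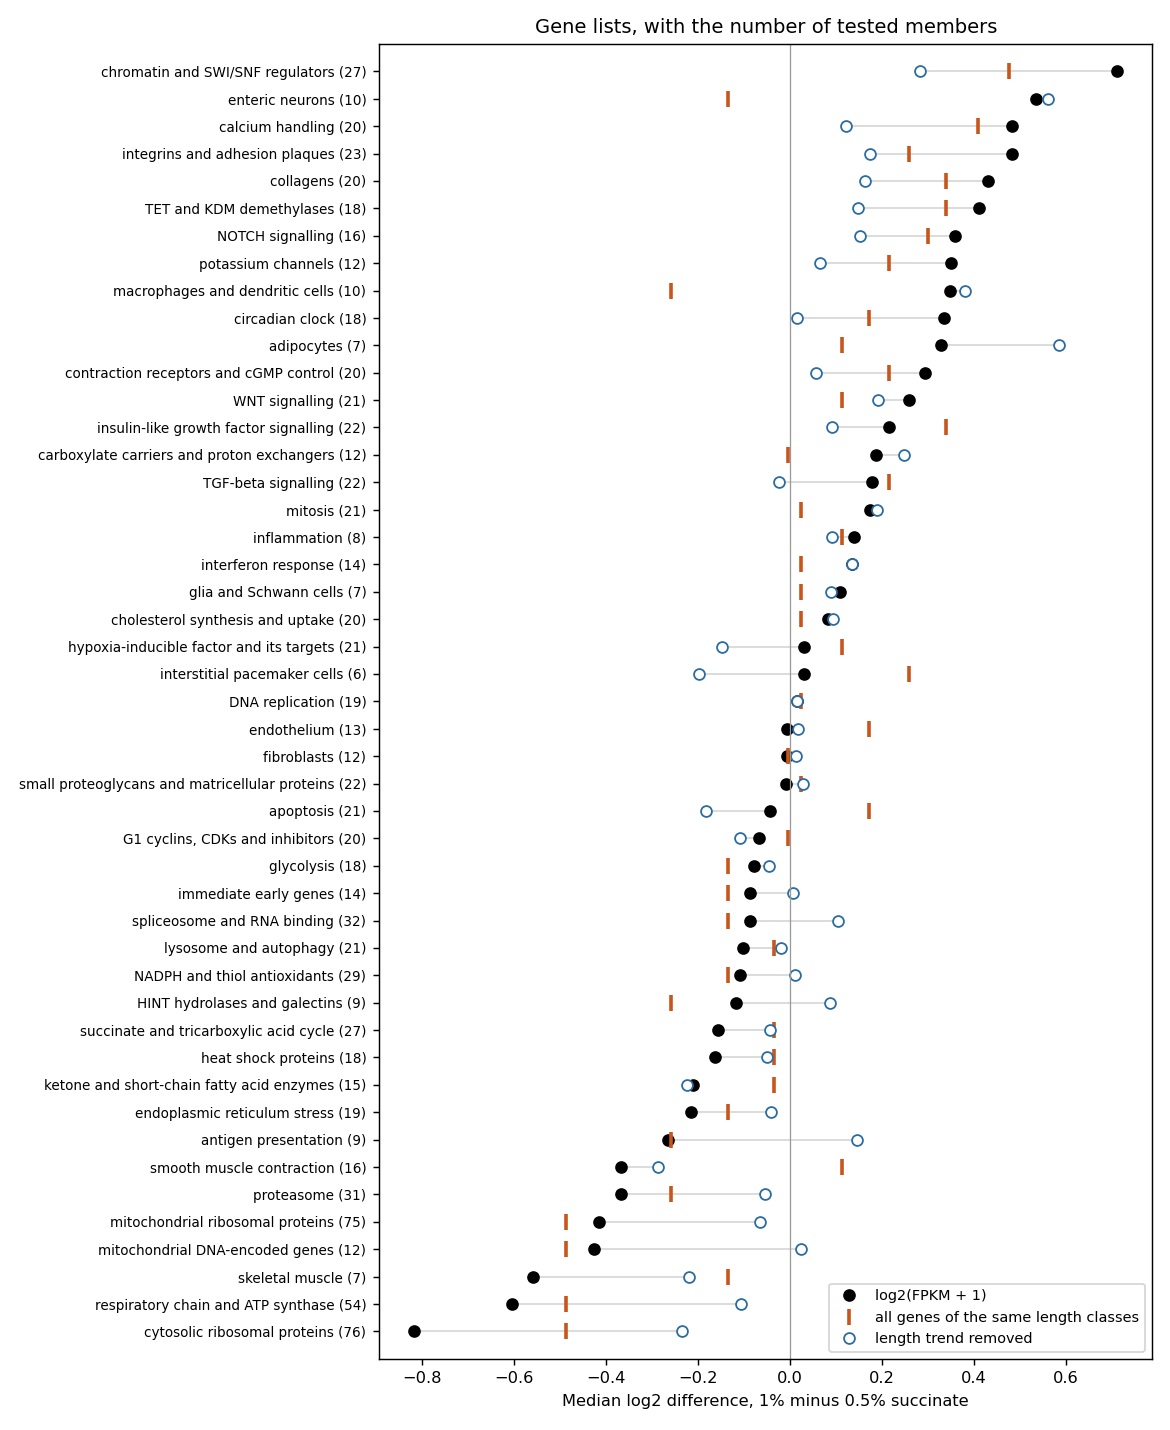
Median log2 difference, 1% minus 0.5% succinate, of each gene list with at least 5 tested members (their number in brackets): black dots on log2(FPKM + 1), orange marks for all tested genes of the same length classes, and open blue circles after the length trend of each library was removed. On FPKM values chromatin regulators have the highest and cytosolic ribosomal proteins the lowest black dot; smooth muscle contraction lies below its own, and enteric neurons, macrophages and dendritic cells above.

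The genes that handle succinate itself mostly overlapped between the doses, as did most tested genes. Of 27 tested genes of the cycle, 8 were higher and 19 lower in value, with a median of -0.16, and -0.04 after length removal. On each scale 0 were higher and 1 lower without overlap, 0% and 3.7% of the list. Of genes of their length classes these shares were 4.92% and 9.03% on FPKM values, and 5.06% and 3.8% after length removal. SDHA, the subunit of succinate dehydrogenase that binds succinate, was at 58.5, 72.3 and 57.8 FPKM with 0.5% and 47.998, 60.4 and 65.7 FPKM with 1%. SDHB, its iron-sulfur subunit, was at 12.4, 15.5 and 10.03 FPKM with 0.5% and 10.5, 11.5 and 12.2 FPKM with 1%. Both overlapped on FPKM values, with differences of -0.12 ± 0.23 and -0.12 ± 0.23. SDHC, a membrane anchor of the complex, was the 1 gene of the list without overlap on FPKM values, at 112, 118 and 91.5 FPKM with 0.5% and 85.01, 77.3 and 56.7 FPKM with 1%, and it overlapped after length removal. On that scale SDHB was the 1 gene of the list without overlap, lower at 1% by a difference of -0.62 ± 0.26, which rests on its deposited length.

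SUCLG1, which makes succinate from succinyl-CoA, was at 129.99, 181 and 119 FPKM with 0.5% and 121, 99.2 and 94.8 FPKM with 1%, a difference of -0.43 ± 0.26, and -0.15 ± 0.17 after length removal. SUCNR1, the succinate receptor, was below the level tested, at 0.0519, 0.491 and 0.787 FPKM with 0.5% and 0.687, 0.548 and 0.246 FPKM with 1%. OGDH, of the 2-oxoglutarate dehydrogenase complex, was at 19.3, 23.2 and 20.1 FPKM with 0.5% and 18.4, 37.7 and 47.04 FPKM with 1%, with 1% replicate 1 below the others of its group.

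HIF1A, the oxygen-sensitive transcription factor that succinate can stabilise, was at 13.9, 8.66 and 15.1 FPKM with 0.5% and 14.5, 10.5 and 11.5 FPKM with 1%, a difference of -0.02 ± 0.26. Of 21 tested genes of the pathway 11 were higher and 10 lower in value. On FPKM values 1 was higher and 2 lower without overlap (4.76% and 9.52%, beside 8.87% and 3.92% of genes of their length classes). After length removal 0 were higher and 3 lower (0% and 14.3%, beside 4.67% and 3.5%). BNIP3L, a receptor for the removal of mitochondria, and ANKRD37, a short hypoxia-induced gene, were lower without overlap on both scales. BNIP3L was at 23.8, 18.5 and 19.9 FPKM with 0.5% and 18.01, 11.6 and 11.7 FPKM with 1%. ANKRD37 was at 2.08, 2.78 and 2.38 FPKM with 0.5% and 1.33, 0.629 and 1.12 FPKM with 1%. KDM3A, a histone demethylase, was higher without overlap on FPKM values, and HIF1AN, which hydroxylates HIF1A, was lower without overlap after length removal, at -0.15 ± 0.17. VEGFA, the growth factor of blood vessels, was at 13.3, 16.7 and 13.4 FPKM with 0.5% and 17.3, 19.4 and 15.4 FPKM with 1%, and LDHA, of lactate production, at 13.2, 24.4 and 21.7 FPKM with 0.5% and 20.5, 12.1 and 9.45 FPKM with 1%; both overlapped.

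Of the 18 tested glycolysis genes 5 were lower without overlap on FPKM values and 1 after length removal, 27.8% and 5.56% of the list beside 8.92% and 3.61% of genes of their length classes. That gene was ENO1, an enolase, at 88.2, 88.7 and 87.3 FPKM with 0.5% and 73.5, 67.3 and 66.7 FPKM with 1%, with little spread in either group. LSS, which closes the sterol ring in cholesterol synthesis, was higher without overlap on both scales, at 2.41, 1.61 and 1.68 FPKM with 0.5% and 3.09, 4.48 and 5.28 FPKM with 1%. The 20 tested cholesterol genes as a list were at a median of 0.08. CPT1A, the gate for fatty acids into mitochondria, was at 15.1, 14.1 and 21.2 FPKM with 0.5% and 21.4, 28.95 and 33.8 FPKM with 1%, and overlapped after length removal.

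Cell division was the subject of the series title, and the tested mitosis genes overlapped between the doses, as most tested genes did. Of 21 tested mitosis genes 17 were higher in value at 1% on FPKM values, and the groups overlapped in all 21 on both scales. On FPKM values this 0% stood beside 6.94% higher and 5.89% lower of genes of their length classes. The shares after length removal were 4.87% and 3.62%, so a list of this size can hold 0 such genes. The list was high in 0.5% replicate 1 and in 1% replicate 2 alone, with scores (mean deviation of its members, length removed) of 0.72 and 1.01, against -0.77 to -0.26 in the other 4. MKI67, the marker of cycling cells, was at 1.26, 0.1803 and 0.374 FPKM with 0.5% and 0.375, 3.003 and 1.01 FPKM with 1%. PRC1, of the mitotic spindle, was at 5.34, 0.793 and 1.93 FPKM with 0.5% and 1.93, 8.87 and 3.11 FPKM with 1%. The median difference of the list was 0.17, and it was 0.60 without 0.5% replicate 1 and -0.24 without 1% replicate 2. The 19 tested DNA replication genes had a median of 0.02 and no gene without overlap on either scale. On FPKM values this 0% stood beside 5.25% higher and 5.67% lower of genes of their length classes. The shares after length removal were 4.63% and 3.46%.

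Of 20 tested genes of the entry into the cycle, 3 were higher and 1 lower without overlap on FPKM values. That is 15% and 5% of the list, beside 7.46% and 5.14% of genes of their length classes. With the length trend removed 1 was higher and 0 lower (5% and 0%, beside 4.71% and 3.71%). CDK4 was lower without overlap on FPKM values, at 38.97, 50.6 and 36.8 FPKM with 0.5% and 35.6, 27.7 and 32.3 FPKM with 1%. It overlapped after length removal. RB1, the brake on that entry, was higher without overlap on both scales, at 5.88, 4.33 and 5.67 FPKM with 0.5% and 8.14, 6.97 and 7.402 FPKM with 1%. CCND1, a cyclin of the same step, was at 37.4, 25.6 and 13.2 FPKM with 0.5% and 21.5, 27.6 and 18.3 FPKM with 1%.

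Clock genes split in both directions. ARNTL, also called BMAL1, the activator at the centre of the clock, was at 2.76, 2.105 and 3.87 FPKM with 0.5% and 5.48, 5.51 and 4.67 FPKM with 1%. DBP, an output gene that the activator drives, was at 52.3, 70.1 and 34.9 FPKM with 0.5% and 26.01, 29.7 and 32.7 FPKM with 1%. Both were without overlap on both scales, with length-removed differences of 0.55 ± 0.21 and -0.68 ± 0.24. NR1D1, the repressor of ARNTL, was at 16.3, 23.5 and 11.9 FPKM with 0.5% and 4.14, 10.7 and 11.7 FPKM with 1%, without overlap on FPKM values. Of the 18 tested clock genes, 3 were higher and 2 lower without overlap on FPKM values. These are 16.7% and 11.1% of the list, beside 14.4% and 3.29% of genes of their length classes. After length removal 1 was higher and 1 lower without overlap (5.56% each, beside 5.26% and 3.81%). The 2% diet, with means of 5.401 FPKM for ARNTL and 33.2 FPKM for DBP, was close to the 1% diet. The basal libraries were split: ARNTL was at 5.76, 2.35 and 1.97 FPKM and DBP at 30.5, 87.7 and 79.9 FPKM, so that basal replicate 1 lay with the 1% diet in both genes. The time of day at which samples were taken is not given in the sources used here.

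Among signalling genes, AXIN2, a target and brake of WNT signalling, was higher without overlap on both scales, at 1.27, 0.842 and 1.805 FPKM with 0.5% and 2.18, 2.77 and 3.497 FPKM with 1%. FZD7, a WNT receptor, was also higher on both, at 5.796, 8.01 and 10.7 FPKM with 0.5% and 12.1, 12.3 and 12.9 FPKM with 1%, while FZD2 and FZD6, of the same receptor family, were lower without overlap after length removal, at -0.56 ± 0.23 and -0.36 ± 0.21. BMPR2, a receptor of bone morphogenetic proteins, was at 7.79, 1.39 and 6.11 FPKM with 0.5% and 8.15, 12.9 and 13.5 FPKM with 1%. Its separation was narrow, between 0.5% replicate 1 and 1% replicate 1, and 0.5% replicate 2 was the lowest by far. HES4, of the NOTCH target family, was higher without overlap on both scales, at 2.02, 1.84 and 2.13 FPKM with 0.5% and 2.55, 3.24 and 2.53 FPKM with 1%. Of 21 tested WNT genes, 16 NOTCH genes and 22 TGF-beta genes, 4, 4 and 3 were higher without overlap on FPKM values, and none was lower. These are 19%, 25% and 13.6% of the lists, beside 11.5%, 17% and 15.6% of genes of their length classes. After length removal 2, 2 and 1 were higher, and 3, 0 and 0 lower, without overlap. The higher shares were 9.52%, 12.5% and 4.55%, beside 4.76%, 5.61% and 5.21% of genes of their length classes. The 3 lower WNT genes were 14.3% of their list, beside 3.59%. The medians were then 0.19, 0.15 and -0.02.

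Among genes of excitation, RYR2, a calcium release channel, was higher without overlap on both scales, at 3.18, 2.63 and 2.83 FPKM with 0.5% and 5.14, 6.84 and 7.08 FPKM with 1%. The 0.5% libraries were tight. Its difference was 0.91 ± 0.22, for a gene of 16348 bases, and 0.38 ± 0.19 after length removal. Of 20 tested calcium genes 17 were higher in value, with a median of 0.48 beside 0.41 for genes of the same length, and 0.12 after length removal. On FPKM values the groups did not overlap in 5 higher genes (25%, beside 24% of genes of their length classes) and 1 lower gene (5%, beside 1.18%). With the length trend removed they did not overlap in 1 higher gene (5%, beside 6.23%) and 0 lower genes (0%, beside 4.77%). KCNJ8, the pore of the ATP-sensitive potassium channel, was lower without overlap on both scales, at 15.4, 16.1 and 24.3 FPKM with 0.5% and 12.2, 9.99 and 9.84 FPKM with 1%. ABCC9, its regulatory partner, was at 7.599, 5.36 and 8.96 FPKM with 0.5% and 8.74, 11.6 and 7.504 FPKM with 1% and overlapped. Receptors for transmitters overlapped: CHRM3, the muscarinic receptor that triggers contraction, was at 12.6, 6.1997 and 8.899 FPKM with 0.5% and 11.2, 13.3 and 13.9 FPKM with 1%, and TACR2, the receptor of neurokinin A, at 14.9, 30.1 and 37.3 FPKM with 0.5% and 23.4, 54.2 and 53.1 FPKM with 1%.

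Protein folding and secretion gave single genes on both sides. XBP1, the transcription factor of the unfolded protein response, was at 43.1, 52.3 and 50.4 FPKM with 0.5% and 41.9, 22.9 and 35.3 FPKM with 1%, and PDIA6, a disulfide isomerase, at 73.8, 72.6 and 75.2 FPKM with 0.5% and 63.8, 58.5 and 55.2 FPKM with 1%. Both were lower without overlap on both scales, as was ASNS, the asparagine synthetase, while EDEM1, which sorts misfolded proteins for destruction, was higher, at 4.93, 4.99 and 5.66 FPKM with 0.5% and 6.995, 8.22 and 8.36 FPKM with 1%. Of 19 tested genes of this response 3 were lower and 2 higher without overlap after length removal. These are 15.8% and 10.5% of the list, beside 3.70% and 4.83% of genes of their length classes. The 18 heat shock genes had a median of -0.16, and -0.05 after length removal, where none was without overlap. This 0% stood beside 4.74% higher and 3.6% lower of genes of their length classes. HSPB1, a small heat shock protein of muscle, was lower without overlap on FPKM values alone, at 2389.6, 2701 and 2381 FPKM with 0.5% and 1804, 1714 and 2179.6 FPKM with 1%.

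Splicing genes lay on both sides. The Sm proteins SNRPD2, SNRPD3 and SNRPF were lower without overlap on FPKM values and overlapped after length removal. SRSF5, a splicing regulator rich in serine and arginine, was higher without overlap on both scales, at 91.04, 83.1 and 101 FPKM with 0.5% and 119.5, 103 and 104 FPKM with 1%, as was SRSF2, of the same family, at 40.7, 34.5 and 36.2 FPKM with 0.5% and 44.5, 44.04 and 50.2 FPKM with 1%. The 32 genes of the list had a median of -0.09, and 0.10 after length removal. With quantile normalization the FPKM median turned to 0.10.

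In the antioxidant list PRDX5, a peroxiredoxin, was lower without overlap on both scales, at 129, 196 and 135 FPKM with 0.5% and 119, 66.1 and 78.97 FPKM with 1%. Of the 29 genes 5 were lower and 2 higher without overlap on FPKM values. These are 17.2% and 6.9% of the list, beside 10.1% and 4.42% of genes of their length classes. After length removal 1 was lower and 0 higher (3.45% and 0%, beside 3.62% and 5.09%). ISG15, a ubiquitin-like protein induced by interferon, was at 3.098, 3.93 and 1.98 FPKM with 0.5% and 1.13, 0.952 and 0.0982 FPKM with 1%. USP18, the protease that takes ISG15 off its targets, was at 0.665, 1.11 and 1.06 FPKM with 0.5% and 1.83, 1.16 and 2.02 FPKM with 1%. These 2 partners lay in opposite directions, both without overlap on both scales, and no other of the 14 interferon genes was without overlap on either. The margin of USP18 was narrow, at 1.11 against 1.16 FPKM, and both genes were near or below 1 FPKM in some libraries. The 1 higher and 1 lower gene are 7.14% of the list each. Of genes of their length classes the shares were 6.1% and 5.25% on FPKM values, and 4.42% and 3.35% after length removal. The 8 inflammation genes and the 12 carriers of carboxylates and protons had no gene without overlap, with medians of 0.14 and 0.19. On FPKM values 9.59% of genes of the inflammation length classes were higher and 4.63% lower without overlap. For the carriers these shares were 6.98% and 6.68%. The shares after length removal were 4.89% and 3.54% for inflammation, and 4.78% and 3.5% for the carriers. Lists this small can hold 0 such genes at these shares.

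PCCB, a subunit of the carboxylase that starts the use of propionate, was lower without overlap on both scales, at 17.1, 18.3 and 13.1 FPKM with 0.5% and 11.6, 10.3 and 10.9 FPKM with 1%. PCCA, its partner subunit, was at 9.31, 5.797 and 5.37 FPKM with 0.5% and 4.84, 5.84 and 4.16 FPKM with 1%, without overlap only after length removal. Of the 15 genes of ketone and short-chain fatty acid use 13 were lower in value, with a median of -0.21 beside -0.04 for genes of the same length, and -0.22 after length removal. On FPKM values 1 was higher (CPT1A) and 1 lower without overlap, 6.67% of the list each, beside 4.88% and 6.37% of genes of their length classes. With the length trend removed 0 were higher and 2 lower (0% and 13.3%, beside 4.65% and 3.51%). The 21 tested lysosome and autophagy genes had a median of -0.10.

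Other lists had few or no genes without overlap after length removal, apart from apoptosis. Of its 21 tested genes 16 were lower in value on that scale, with a median of -0.18. Of these 3 were without overlap, 14.3% of the list beside 3.76% of genes of their length classes. On FPKM values the list medians were -0.04 for 21 apoptosis genes and -0.27 for 9 antigen presentation genes. They were -0.09 for 14 immediate early genes and 0.21 for 22 genes of insulin-like growth factor signalling. The medians of genes of the same length were 0.17, -0.26, -0.13 and 0.34. The 12 mitochondrial DNA genes were at -0.43, beside -0.49, and the 20 cyclin and inhibitor genes of the entry into the cycle at -0.07. The 22 small matrix proteins were at -0.01, the 12 potassium channels at 0.35 and the 20 receptors and cGMP genes at 0.29. The medians of lists described by single genes were -0.12 for HINT hydrolases and galectins, 0.33 for the clock, 0.26 for WNT, 0.36 for NOTCH, 0.18 for TGF-beta, 0.03 for the hypoxia-inducible factor, -0.08 for glycolysis, -0.11 for antioxidants, 0.13 for interferon, -0.22 for the unfolded protein response, -0.01 for endothelium and 0.11 for glia.

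The direction of several small medians depended on scaling. With TMM factors the medians of the hypoxia-inducible factor, DNA replication, cholesterol and pacemaker lists were -0.09, -0.10, -0.01 and -0.07. With quantile normalization those of the heat shock, lysosome and fibroblast lists and of the small matrix proteins were 0.03, 0.02, 0.23 and 0.21, and that of glia was -0.04. After length removal, quantile normalization put the proteasome at 0.07, the tricarboxylic acid cycle at 0.13 and glycolysis at 0.05.

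Markers of enteric neurons, adipocytes, macrophages and endothelium were low in 1 library, 0.5% replicate 1. In the same library the summed levels of the pacemaker cell list (234 FPKM) and of the glial list (47.9 FPKM) were the highest of the 6. Of the glial sum 28.5 FPKM came from S100B alone. The glial list score of that library was -0.09 after length removal, where the 6 libraries ran from -0.09 to 0.14. In 0.5% replicate 1 the summed level of the enteric neuron list was 2.72 FPKM, against 66.9 and 109 FPKM in the other 0.5% libraries and 85.5, 58.96 and 31.9 FPKM at 1%. PRPH (peripherin, a filament of peripheral neurons) was at 0.0633, 6.07 and 6.91 FPKM with 0.5% and 6.84, 6.02 and 6.23 FPKM with 1%. VIP, a relaxing transmitter, was at 0.669, 8.02 and 15.4 FPKM with 0.5% and 7.197, 5.36 and 2.03 FPKM with 1%. The list median was 0.54 and turned to -0.54 without that library.

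Adipocyte and macrophage genes were low in the same library. ADIPOQ, the adiponectin of fat cells, was at 0.0529, 36.1 and 14.5 FPKM with 0.5% and 22.3, 6.18 and 18.4 FPKM with 1%. LYVE1, a receptor on resident macrophages and lymph vessels, was at 3.69, 19.5 and 22.6 FPKM with 0.5% and 24.8, 15.9 and 19.98 FPKM with 1%. The medians of the adipocyte and macrophage lists, 0.33 and 0.35, turned to -0.68 and -0.10 without 0.5% replicate 1. In that library the smooth muscle list summed to 64266 FPKM, the highest of the 6, and its score was 0.35, against -0.39 to 0.06 in the others. The part of these cell types in the lower LGALS1 and smooth muscle values at 1% was not tested.

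The remaining lists of cells gave few values to compare. Fibroblast genes overlapped throughout, with a median of -0.01 over 12 genes and none without overlap. On FPKM values this 0% stood beside 9.02% higher and 5.9% lower of genes of their length classes. The shares after length removal were 4.92% and 3.74%. Of 13 endothelial genes, EGFL7, a secreted factor of vessels, was lower without overlap after length removal, at 6.86, 12.2 and 10.9 FPKM with 0.5% and 6.68, 6.16 and 7.35 FPKM with 1%. In the glial list S100B, a calcium-binding protein of Schwann cells and glia, was lower without overlap on FPKM values, at 28.5, 18.6 and 16.98 FPKM with 0.5% and 10.1, 9.12 and 14.8 FPKM with 1%, and ERBB3, their neuregulin receptor, higher on both scales, at 3.79, 2.92 and 3.65 FPKM with 0.5% and 4.72, 7.96 and 6.53 FPKM with 1%. The 7 skeletal muscle genes had a median of -0.56, which was 0.02 without 0.5% replicate 1 and -0.22 after length removal, and the 6 pacemaker cell genes of 0.03. Of the epithelial lists, ITGA6, ITGB4, DST, LAMB3, SBSN, PKP1, FABP5, S100A14 and KRT8 reached the level tested, all with overlap. Of the B cell list JCHAIN and XBP1 did. Of the lists of T and natural killer cells, of neutrophils and mast cells and of red blood cells, 0 genes reached the level tested.

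**Figure D5:**
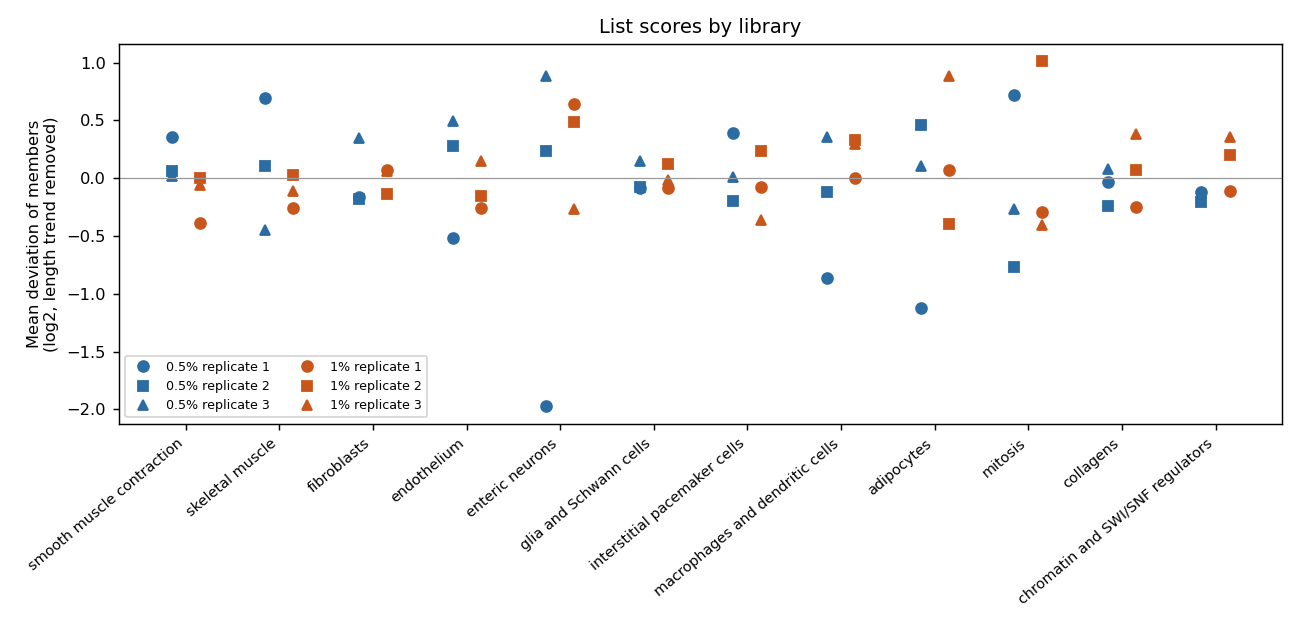
Score of 12 gene lists in each library, the mean over tested members of the deviation from the 6-library mean after length removal (log2), for 0.5% (blue) and 1% succinate (orange), with circles, squares and triangles for replicates 1, 2 and 3. The 0.5% replicate 1 library lies lowest for enteric neurons, macrophages and dendritic cells, adipocytes and endothelium and highest for smooth muscle; 0.5% replicate 1 and 1% replicate 2 lie highest for mitosis.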

How the data were processed

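Total RNA was taken up by Trizol and made into libraries with a NEBNext Ultra II kit, per the labels' protocols; trimming with cutadapt 1.15, alignment with HISAT2 2.1.0 and counting with HTSeq 0.9.1 are named in the submitters' processing notes. The authors deposited FPKM values and a length for each of 21257 genes; neither build nor strand setting is given in the sources used here. Multiplied by length and scaled, 100% of FPKM values fell within 0.01 of whole reads, from which library totals were taken. RefSeq (ARS-UI_Ramb_v3.0) matched 98.2% of the gene IDs and was used for names only.

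Values were log2(FPKM + 1), with genes of at least 1 FPKM in at least 3 of the 6 libraries. limma 3.58.1 (R 4.3.3, statmod 1.5.0) with intensity trend and robust moderation compared 3 libraries at 1% with 3 at 0.5% succinate, two-sided, with Benjamini-Hochberg adjustment over 11614 genes and a threshold of 0.05. A log2 difference on this scale understates the change of genes near 1 FPKM. A second fit used values from which each library's lowess curve (span 0.3) of deviation on log2 length had been subtracted. Both were tested on simulated data with 200 changed genes. Alternatives were other pseudocounts, filters, scalings, weights, blocks, sample sets and length curves.

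For each fit, named genes were those without overlap at a mean of at least 2 FPKM, up to 10 per direction past the threshold or the 6 of smallest p, up to 2 per list by the smallest length-removed p, and SUCNR1, SDHA, SDHB, SUCLG1, HIF1A, MKI67, HINT1, LGALS1, ACTA2 and DES. The members and the 54 lists were chosen with earlier results of these data known. Other list members given as examples were chosen after their values were seen. A score averages members' deviations from the 6-library mean.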

Additional observations from a re-analysis of the deposited data

How the results depend on the processing

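No gene passed on either scale under most alternatives. The exceptions on FPKM values were library weights with 3594 genes, the replicate block with 27, and leaving out both 1% libraries with a length trend with 1, and the counts without single libraries ran from 0 to 2. After length removal they were library weights with 1368 and leaving out both 1% libraries with 1. The weights' estimation did not converge fully, and the cause of these counts was not tested. The 2 genes without 1% replicate 3 were LOC114112940 and LOC121817857, and the 1 without both 1% libraries was LOC114109518, a ribosomal protein gene at 914 FPKM in 1% replicate 1 and 8.14 to 48.3 FPKM in the others; these were named after their values were seen. With 1 library left at 1%, it is assumed to vary like the others. The labels do not state that replicate numbers pair the libraries. Deviations of same-numbered libraries from their diet means correlated at -0.22, -0.17 and 0.0015 on FPKM values. After length removal these were -0.13, -0.03 and -0.05. Differently numbered libraries lay between -0.10 and 0.24 on FPKM values. Deviations from a mean of 3 libraries are tied to each other, so such values cannot exclude a pairing. The 27 calls under the replicate block rest on a shared number that the labels do not explain. The replicate block with length removed gave 0. At an unadjusted p under 0.05, the FPKM counts were 1490 higher and 929 lower with all 12 libraries, 1783 and 1298 without 1% replicate 1, 223 and 145 without 0.5% replicate 2, and 561 and 567 with quantile normalization.

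Each of 124 genes was followed under alternatives on a single scale. On FPKM values these were only genes without overlap and of smallest p. After length removal they included list members and fixed genes taken without a limit on p, so reversals cannot be compared between the scales. Of 2468 values of the 124 genes 64 had the opposite sign, in 34 genes, all among those followed after length removal. With quantile normalization these were TPM2 0.0048, LUM 0.039, RPS16 0.016, PSMB9 -0.0059, GABARAP 0.0065, SDHA 0.15, SUCLG1 0.0704, HINT1 -0.091 and DES 0.11. With library weights they were LUM 0.013, ELOVL6 0.0601, PKP1 -0.41, PTGS2 0.12, SDHA 0.032 and DES 0.14, and without a filter PSMB9 -0.031 and HINT1 -0.24. Without both 1% libraries with a length trend they were ETV1 0.27, PLIN4 -0.24, DST -0.12, SLC25A11 -0.081, LDHA 0.047, PRC1 -0.17, CDKN1C 0.063, TNS1 -0.023, PPP1R14A -0.44, PRKG1 0.12, CTSS 0.027, PSMB9 -0.086, BAG3 -0.091, ULK1 -0.22, HIF1A 0.13, MKI67 -0.42 and HINT1 -0.074. Without all 3 such libraries they were ETV1 0.13, PLIN4 -0.34, DST -0.24, SLC25A11 -0.13, PHF8 -0.046, PGAM2 -0.076, LDHA 0.24, PMVK -0.046, PRC1 -0.57, CCND2 -0.0075, CDKN1C 0.065, ELN -0.18, TNS1 -0.051, PPP1R14A -0.84, PRKG1 0.12, PSMB9 -0.065, BAG3 -0.14, NOTCH2 -0.035, SMAD2 0.022, ULK1 -0.16, MKI67 -0.49 and HINT1 -0.063. Leaving out single libraries gave ETV1 -0.51 to 0.078, SDHA -0.16 to 0.074, MKI67 -0.33 to 0.27 and HINT1 -0.12 to 0.26. The cause of these reversals was not tested. Of 1833 list medians under alternatives 192 moved by more than the spread.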
